A study of Mus musculus with 7 samples.

Results

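The Toll-like receptors examined here were Tlr1, Tlr2, Tlr4, Tlr6, Tlr7, Tlr8, Tlr9 and Tlr13, and with them Myd88, the adaptor through which all of these receptors signal. The 9 genes were taken by symbol from the deposited table of read counts, which held 24421 genes, and all 9 were found. The libraries were made from eosinophils sorted from muscle 3 days after ntx, an abbreviation that the labels do not spell out, in mice of genotype IL5-Tg (4 libraries) and WT (3 libraries). The series' design text calls the muscles damaged and names an excess of eosinophils in IL-5Tg mice as the condition of interest. Cells were gated as CD45+ and SiglecF+, negative for NK1, Ly6G and CD3e, with a CD11b gate whose level the labels abbreviate. The labels do not state the promoter of the transgene, the strain, sex or age of the mice, or whether each library is a separate mouse. Each p-value therefore reflects only how these 7 libraries vary, which may be technical. The series' title names mdx mice, but no sample label does.

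Toll-like receptors bind molecules of microbes and of damaged cells. The surface receptor Tlr2 pairs with Tlr1 or Tlr6 to bind lipoproteins, and Tlr4 binds bacterial lipopolysaccharide together with Ly96 and the co-receptor Cd14. Tlr7, Tlr8, Tlr9 and Tlr13 sit in endosomes and bind nucleic acids, with Tlr7 and Tlr8 specific for single-stranded RNA, Tlr9 for DNA with unmethylated CpG and mouse Tlr13 for bacterial ribosomal RNA. On ligand binding the receptors recruit Myd88 and the Irak kinases, which activate NF-kappaB and interferon regulatory factors. Eosinophils, neutrophils and macrophages all carry members of the family.

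The 9 genes lie on 5 mouse chromosomes in the mm10 build (GENCODE vM21). Tlr1 at chr5:64924679-64933563 and Tlr6 at chr5:64952031-64960097 are neighbours on the minus strand of chromosome 5. Tlr7 at chrX:167304929-167330558 and Tlr8 at chrX:167242696-167264329 are neighbours on the minus strand of chromosome X, which also holds Tlr13 at chrX:106143204-106160493 on the plus strand. Tlr2 is at chr3:83836272-83841767 on the minus strand and Tlr4 at chr4:66827584-66930284 on the plus strand. Tlr9 at chr9:106222598-106226883 (plus strand) and Myd88 at chr9:119335934-119341411 (minus strand) share chromosome 9. Exons of Myd88 overlap exons of Acaa1a on the opposite strand, and no source used here states how strand was treated in counting. Reads of Myd88 and Acaa1a in that overlap may not have been told apart.

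Tlr1 and Tlr6 share long identical stretches of coding sequence, which bears on their counts. Of the 3336 different stretches of 42 bases, the length of a read, in the Tlr1 transcripts, 15.4% also occurred in Tlr6 transcripts, and 13.8% of those of Tlr6 occurred in Tlr1. No other pair among the 9 genes shared such a stretch. The longest run of coding sequence identical in both genes was 229 bases, printed with the length of a read at its start in capitals (GENCODE vM21 transcripts, mm10).
Tlr1 and Tlr6: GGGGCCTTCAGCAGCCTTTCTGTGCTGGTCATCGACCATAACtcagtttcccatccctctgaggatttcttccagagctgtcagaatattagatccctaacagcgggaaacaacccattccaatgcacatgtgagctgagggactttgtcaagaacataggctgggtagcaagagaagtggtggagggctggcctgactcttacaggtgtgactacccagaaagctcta
A read pair that lies wholly within such a run matches both genes, and how it was counted is not known, so the split of reads between Tlr1 and Tlr6 is uncertain.

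The promoters of the most abundant receptor and of the adaptor are shown because these genes led the family in both genotypes. The windows run from 250 bases before to 50 after the start site (RefSeq, GRCm38.p6) and were searched on both strands for 6 motifs. In letters these were gaggaa of ETS factors such as the myeloid regulator Spi1, agataa of GATA factors, ggg, any 2 bases and tttcc of NF-kappaB, gaaa, any 2 bases and gaaa of interferon regulatory factors, ttcnnngaa of STAT factors and tgantca of AP-1. Capitals mark the matches, and windows for 7 of the 9 genes were in the table, not for Tlr4 and Tlr7.
Tlr13 promoter, chrX:106143025-106143324, plus strand: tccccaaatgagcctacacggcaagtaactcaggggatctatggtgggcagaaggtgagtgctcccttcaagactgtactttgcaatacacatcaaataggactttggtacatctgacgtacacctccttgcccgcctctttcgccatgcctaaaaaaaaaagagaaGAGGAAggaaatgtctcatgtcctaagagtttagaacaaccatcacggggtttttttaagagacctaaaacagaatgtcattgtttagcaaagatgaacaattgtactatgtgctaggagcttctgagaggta
Myd88 promoter, chr9:119339969-119340268, minus strand: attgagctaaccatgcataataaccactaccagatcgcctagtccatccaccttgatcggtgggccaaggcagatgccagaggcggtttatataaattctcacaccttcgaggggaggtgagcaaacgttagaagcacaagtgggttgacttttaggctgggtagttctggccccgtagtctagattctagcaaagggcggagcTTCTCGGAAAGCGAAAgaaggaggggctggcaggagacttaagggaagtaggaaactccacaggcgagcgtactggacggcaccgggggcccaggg
The Tlr13 window held gaggaa from 83 bases before the start site, a motif found in 28.3% of all 32851 promoter windows. The Myd88 window held ttcnnngaa from 46 bases and the interferon regulatory factor motif from 40 bases before the start site, overlapping each other, and these motifs were found in 8.30% and 3.44% of all windows. The gaggaa motif was also in the windows of Tlr8 and Tlr9 and in 1 of the 2 windows of Tlr1.

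Total counts assigned to genes ranged from 9665093 to 17447106 per library. Il5 checked the labels, with 338 to 447 CPM (read counts scaled to library size with TMM factors) in IL5-Tg libraries and 0 to 1.39 CPM in WT libraries. Low counts were coarser in WT libraries. The most common, or most frequent, low count of a library was taken as the centre of the 5-count window with the most genes per count. It was 1, 1, 1 and 4 reads in IL5-Tg replicates 1 to 4, against 5, 8 and 12 reads in WT replicates 1 to 3. All 10 eosinophil markers, among them Alox15 and Ccr3, had reads in every library. Their summed level was 5010 to 9420 CPM in IL5-Tg libraries and 3540 to 7060 CPM in WT libraries. Alox15 made up most of this sum, and single markers, read after values were seen, differed in direction. Prg2, Epx, Ear1, Ear2 and Ear6 were higher in every IL5-Tg library than in any WT library. Il5ra was at 48 to 88.3 CPM in IL5-Tg and 83.8 to 181 CPM in WT libraries. Siglecf, Ccr3, Prg3 and Alox15 overlapped between the genotypes. RNA of other cell types was also present. The 12 macrophage and monocyte markers were led by Adgre1 (also found on mouse eosinophils) and Csf1r. They summed to 4980 to 5980 CPM in IL5-Tg libraries and 3810 to 5480 CPM in WT libraries. In WT replicate 3 Adgre1 made up 2460 of the 3950 CPM. There C1qa, C1qb, C1qc and Cd68 were at 68.4, 99.8, 48.8 and 109 CPM, below every other library. Mrc1 and Mertk were also lowest there, and the remaining markers of the list, such as Csf1r, were not. The 7 fibroblast markers summed to 1780 to 4340 CPM in IL5-Tg libraries and to 2720, 2950 and 12.8 CPM in WT replicates 1 to 3, where WT replicate 3 stood apart. Neutrophil markers summed to 66.6 to 96.1 CPM in IL5-Tg libraries, against 447, 190 and 44.0 CPM in WT replicates 1 to 3. Within this list Ngp, a granule protein singled out after its values were seen, went the other way. It was at 26.3 to 33.5 CPM in IL5-Tg libraries and 0 to 0.362 CPM in WT libraries. At low levels Ltf and Camp leaned the same way as Ngp. Ltf was at 2.33 to 3.56 CPM in IL5-Tg and 0.739 to 2.36 CPM in WT libraries. Camp was at 0 to 1.45 CPM in IL5-Tg and 0 CPM in WT libraries. Mast cell and basophil markers summed to 3.07 to 30.2 CPM in IL5-Tg libraries and 79.7 to 108 CPM in WT libraries.

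Per exon length, Myd88 and Tlr13 were the most abundant of the 9 genes in both genotypes. Levels of different genes were compared as CPM per kb of exon. Myd88 averaged 54.0 ± 14.9 in IL5-Tg and 61.6 ± 21.3 in WT libraries, above 92.2% of the 11973 tested genes with a length. Tlr13 followed with 23.9 ± 3.82 in IL5-Tg and 23.1 ± 8.04 in WT libraries (CPM per kb, SD, n = 4 and 3), above 82.8% of genes. Tlr2 came next in both, at 13.1 ± 3.67 in IL5-Tg and 18.3 ± 6.53 in WT libraries. The other 6 receptors averaged 1.03 to 7.71 CPM per kb. In IL5-Tg libraries the ranges of Myd88, Tlr13 and Tlr2 did not overlap, while each later neighbour in the order Tlr4, Tlr7, Tlr1, Tlr9, Tlr8 and Tlr6 overlapped with the next. In WT libraries the order after Tlr2 was Tlr7, Tlr6, Tlr9, Tlr1, Tlr8 and Tlr4. There the ranges of Tlr13 and Tlr2 overlapped, although Tlr13 was above Tlr2 in 3 of 3 libraries, and all neighbours below Tlr2 overlapped. Tlr4 was thus at position 4 in the IL5-Tg order and at position 9 in the WT order. Its WT mean includes a single read in WT replicate 3, or 0.017 CPM per kb. In WT replicate 1 Tlr4, at 1.58 CPM per kb, was above Tlr8 (0.64) and Tlr9 (1.04). In WT replicate 2 it was at 1.48, below Tlr8 (2.27) and Tlr9 (4.07). The last position in the WT order is therefore uncertain.

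The 8 receptors together reached 57.7 to 64.8 CPM per kb in IL5-Tg libraries and 72.1, 54.8 and 38.3 CPM per kb in WT replicates 1 to 3. Tlr13 alone made up 32.8% to 50.6% of this sum in IL5-Tg libraries and 35.9% to 45.2% in WT libraries. The surface receptors Tlr1, Tlr2, Tlr4 and Tlr6 together made up 34.2% to 48.6% in IL5-Tg libraries and 39.6% to 47.3% in WT libraries, so these ranges overlapped. Shares of 1 sum depend on each other and were not tested. Tlr4 made up 7.84% to 16.3% of the sum in IL5-Tg libraries and 0.0444% to 2.70% in WT libraries. Tlr2 made up 13.5% to 24.5% in IL5-Tg libraries and 31.4% to 34.8% in WT libraries. The shares of Tlr1, at 1.99% to 8.84% in IL5-Tg and 0.959% to 6.33% in WT libraries, and of Tlr6, at 2.84% to 4.92% in IL5-Tg and 4% to 7.15% in WT libraries, overlapped.

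**Figure D1:**
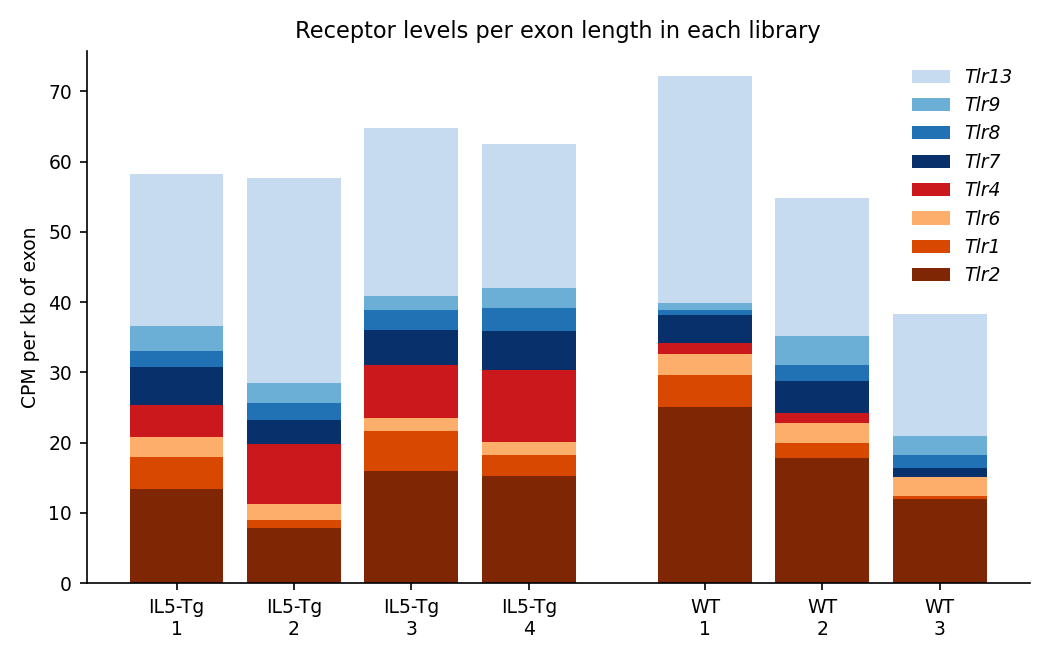
Stacked bars give the level of each of the 8 receptors in CPM per kb of exon (vertical axis) in each of the 4 IL5-Tg and 3 WT libraries. Tlr13 takes the top of every bar, Tlr2 the bottom, and the Tlr4 segment is 7.84% to 16.3% of the bar in IL5-Tg libraries and at most 2.70% in WT libraries.

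The comparison of genotypes asked whether the receptor repertoire of muscle eosinophils differed when IL-5 was in excess. All 9 genes passed the filter on low counts. By edgeR 0 of 9 passed an adjusted p of 0.05 over all 12428 tested genes, where 0.410% of all tested genes passed (0.338% higher and 0.0724% lower in IL5-Tg). By DESeq2 1 of 9 passed, Tlr4, where 1.81% of all tested genes did, and by limma-voom 0 of 9, where 0.177% did. At an unadjusted edgeR p under 0.05 there was 1 of 9, again Tlr4, against 9.04% of all tested genes. The log2 fold change was positive for 6 and negative for 3 of the 9 genes, with a median of 0.09, beside 0.03 over all tested genes, of which 52.1% were positive. The levels of the genotypes did not overlap for 2 of 9 genes, Tlr4 and Tlr8, against 9.36% of all tested genes. In bulk samples, fewer cells of a type and less RNA per cell cannot be told apart.

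**Figure D2:**
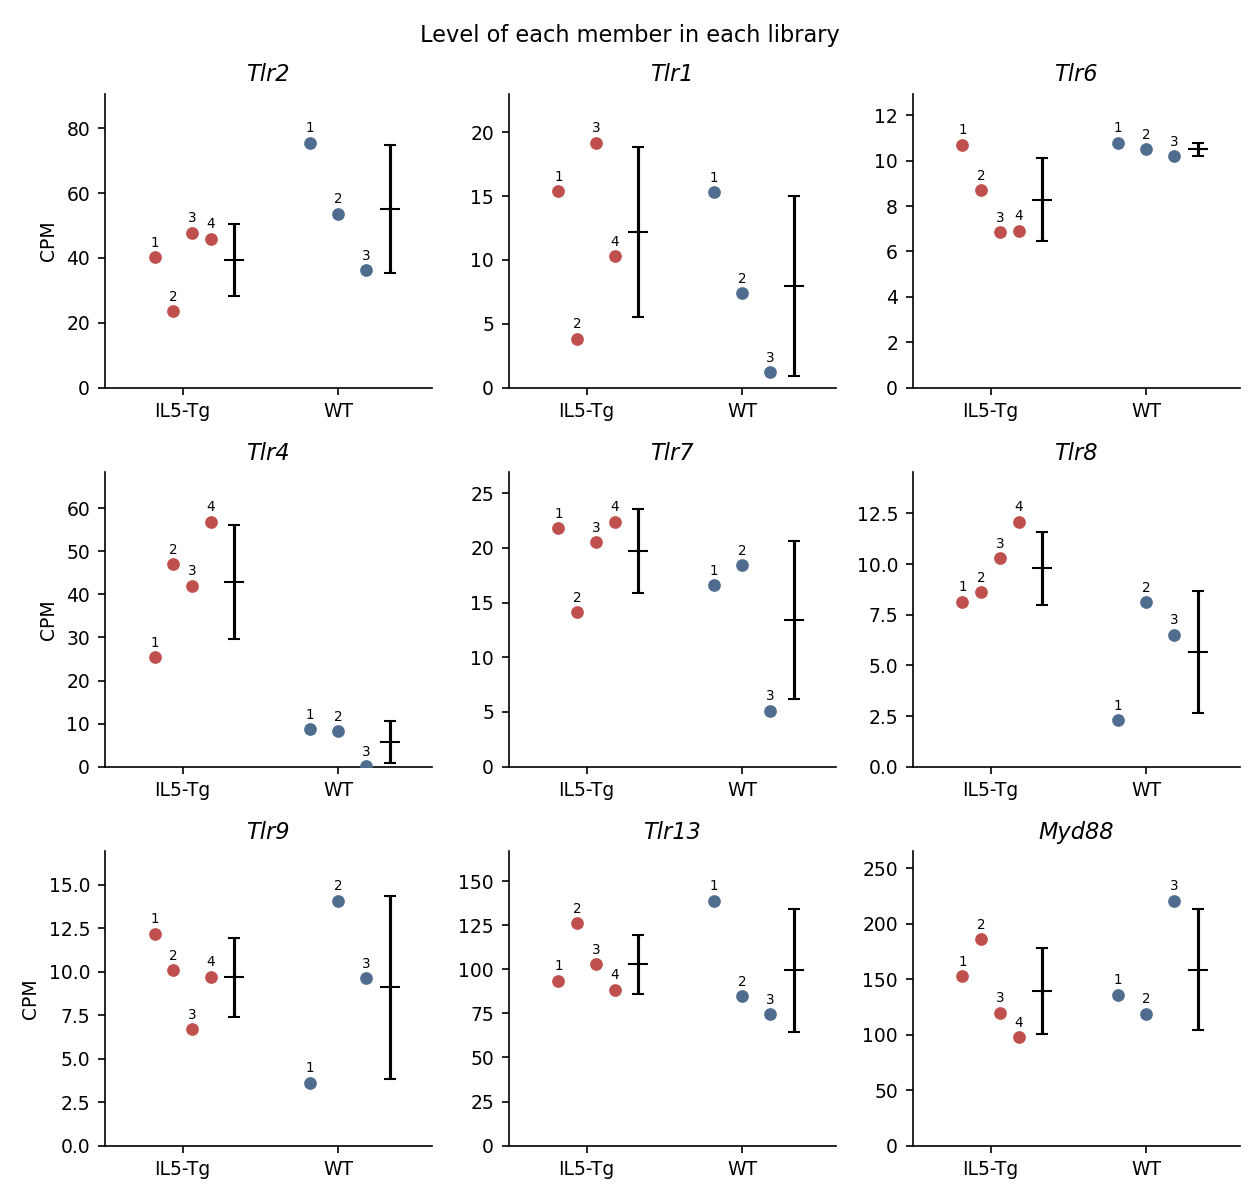
Points give the level of each gene in CPM (vertical axes, each from 0) in the 4 IL5-Tg and 3 WT libraries, numbered by replicate, with the mean and SD beside each group. For Tlr4 the IL5-Tg libraries lie between 25.4 and 56.9 CPM and all WT libraries at or below 8.76 CPM, while for Tlr13 and Myd88 the groups overlap.

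Tlr4, the lipopolysaccharide receptor, had by far the widest gap between genotypes among the 9 genes. Its reads numbered 271, 612, 576 and 1095 in IL5-Tg replicates 1 to 4, against 145, 78 and 1 in WT replicates 1 to 3. This corresponds to 25.4, 47.0, 42.0 and 56.9 CPM in IL5-Tg replicates 1 to 4 and to 8.76, 8.24 and 0.0945 CPM in WT replicates 1 to 3. Every IL5-Tg library was above every WT library, and the lowest IL5-Tg level was 2.90 times the highest WT level. WT replicate 3 was far below the other WT libraries, with a single read beside a most common low count of 12. The means were 42.8 ± 13.2 CPM in IL5-Tg (SD, n = 4) and 5.70 ± 4.86 CPM in WT libraries (SD, n = 3), a ratio of 7.52, or 5.04 without WT replicate 3.

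The log2 fold change of Tlr4 was 2.90 ± 0.97 (SE; unadjusted 95% interval 0.65 to 5.16), and it did not pass the test over all genes (edgeR adjusted p = 0.418, higher in 4 of 4 libraries). A log2 fold change at least as high was found for 115 of the 12428 tested genes, or 0.925%. The call differed between alternatives. The adjusted p was 0.0112 by edgeR without WT replicate 3, 0.0114 by DESeq2, 0.0234 by edgeR with the shared start of the sample titles as a block and 0.0396 by edgeR with each library divided by its most frequent low count, and 0.242 to 0.920 under the other alternatives. Of all tested genes, 0.752% passed without WT replicate 3, 1.81% by DESeq2, 0.418% with the block and 0.909% after the division. The title starts of IL5-Tg replicates 1 and 2 and of WT replicate 3 occurred in 1 genotype only. With the block these libraries did not inform the genotype difference, so WT replicate 3 was set aside there too. Over all 17 alternatives the log2 fold change of Tlr4 was 2.36 to 3.37. Of the libraries that share a title start, those beginning with 82 differed by a ratio of 4.79 and those with 86 by 6.90, IL5-Tg over WT; the labels do not say what the title start stands for. The Tlr4 level is given here beside that of other cells. Within WT the fibroblast sum and Tlr4 were both lowest in replicate 3, as were the macrophage markers C1qa, C1qb, C1qc and Cd68. The IL5-Tg and the other WT libraries overlapped in the fibroblast sum and in the macrophage sum, of which Adgre1 is a large part. In Tlr4 they did not overlap. The muscle markers, led by Acta1 and Ckm, summed to 1040, 323, 531 and 399 CPM in IL5-Tg replicates 1 to 4, against 293, 336 and 94.2 CPM in WT replicates 1 to 3. The markers of T, NK and innate lymphoid cells, mostly Il7r, summed to 15.2 to 26.9 CPM in IL5-Tg libraries, against 17.3, 10.3 and 0.378 CPM in WT replicates 1 to 3. Like Tlr4, both of these sums were mostly higher in IL5-Tg libraries and lowest in WT replicate 3, with a small overlap between the genotypes. The markers of dendritic cells, mostly H2-Ab1 and Itgax, summed to 1350, 1220, 1130 and 697 CPM in IL5-Tg replicates 1 to 4. In WT replicates 1 to 3 they summed to 1080, 566 and 434 CPM. This sum too was mostly higher in IL5-Tg libraries and lowest in WT replicate 3, with a wider overlap. The part of other cells' RNA in the Tlr4 difference was not tested.

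The genes that act with Tlr4 in lipopolysaccharide recognition did not share its pattern. They were chosen for their role after values were seen. Cd14, the co-receptor, had 123, 61.6, 205 and 165 CPM in IL5-Tg replicates 1 to 4, against 280, 144 and 120 CPM in WT replicates 1 to 3, and the groups overlapped. Its log2 fold change was -0.39 ± 0.42 (SE; edgeR adjusted p = 0.890). Ly96, the secreted partner that Tlr4 needs to bind lipopolysaccharide, was low in all libraries, at 2.15 to 4.66 CPM in IL5-Tg and 1.16 to 5.32 CPM in WT libraries. Its log2 fold change was -0.15 ± 0.73 (SE; edgeR adjusted p = 0.973). Lbp, the plasma protein that delivers lipopolysaccharide, was at 11.6 ± 5.62 CPM in IL5-Tg and 11.7 ± 9.92 CPM in WT libraries (SD, n = 4 and 3).

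Tlr2, the common partner of the lipoprotein receptors, had the highest mean level per kb of exon among the surface receptors in both genotypes, although Tlr4 was above it in IL5-Tg replicate 2. In CPM it had 40.3, 23.5, 47.8 and 45.9 CPM in IL5-Tg replicates 1 to 4, against 75.6, 53.7 and 36.3 CPM in WT replicates 1 to 3. The groups overlapped, through WT replicate 3, and IL5-Tg replicate 2 was the lowest library. Its log2 fold change was -0.49 ± 0.33 (SE, interval -1.21 to 0.24; edgeR adjusted p = 0.767), negative under all 17 alternatives.

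Tlr1, which joins Tlr2 for triacylated lipoproteins, varied the most within both genotypes. It had 15.4, 3.84, 19.2 and 10.3 CPM in IL5-Tg replicates 1 to 4, against 15.3, 7.39 and 1.23 CPM in WT replicates 1 to 3. The groups overlapped almost wholly, and the 13 reads of WT replicate 3 are 1.08 times the most frequent low count there. Its coefficient of variation was 54.4% in IL5-Tg and 88.4% in WT libraries, and its log2 fold change 0.60 ± 0.76 (SE, interval -1.09 to 2.29; edgeR adjusted p = 0.907).

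Tlr6, the alternative partner for diacylated lipoproteins, had the lowest coefficient of variation of the 9 genes among WT libraries, at 2.61%. That value rests on only 178, 99 and 108 reads in WT replicates 1 to 3, and such close agreement may be chance. Tlr6 had 10.7, 8.69, 6.85 and 6.91 CPM in IL5-Tg replicates 1 to 4, against 10.8, 10.5 and 10.2 CPM in WT replicates 1 to 3. IL5-Tg replicate 1 lay within the WT range and the other 3 IL5-Tg libraries below it. On the log2 scale the fold change was -0.34 ± 0.37 (SE, interval -1.17 to 0.49; edgeR adjusted p = 0.893). Summed with Tlr1, with which it shares sequence, it reached 20.5 ± 6.72 CPM in IL5-Tg and 18.4 ± 7.32 CPM in WT libraries (SD, n = 4 and 3).

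Among the endosomal receptors Tlr13, the sensor of bacterial ribosomal RNA, was the best measured, with 788 to 2299 reads per library. It had 93.6, 126, 103 and 88.5 CPM in IL5-Tg replicates 1 to 4, against 139, 84.7 and 74.5 CPM in WT replicates 1 to 3. WT libraries held both the highest and the lowest level. Its log2 fold change was 0.05 ± 0.27 (SE; edgeR adjusted p = 0.978), and its interval of -0.56 to 0.65 was the narrowest of the 9 genes. Its sign turned under 5 of the 17 alternatives.

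Tlr7 and Tlr8, the sensors of single-stranded RNA, both had positive fold changes that did not pass. Tlr7 had 21.8, 14.1, 20.5 and 22.4 CPM in IL5-Tg replicates 1 to 4, against 16.6, 18.4 and 5.10 CPM in WT replicates 1 to 3. Its groups overlapped, with WT replicate 3 the lowest library and IL5-Tg replicate 2 the next, and its log2 fold change was 0.56 ± 0.44 (SE, interval -0.41 to 1.53; edgeR adjusted p = 0.810). Tlr8 had 8.15, 8.61, 10.3 and 12.1 CPM in IL5-Tg replicates 1 to 4, against 2.30, 8.13 and 6.52 CPM in WT replicates 1 to 3. The Tlr8 groups were separated by 8.15 against 8.13 CPM only, and they overlapped when libraries were scaled by RLE, by the upper quartile or by total counts alone. Tlr8 had a log2 fold change of 0.80 ± 0.51 (SE, interval -0.33 to 1.93; edgeR adjusted p = 0.745), positive under the 16 alternatives in which it was tested.

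Tlr9, the sensor of CpG DNA, had 12.2, 10.1, 6.70 and 9.71 CPM in IL5-Tg replicates 1 to 4, against 3.62, 14.1 and 9.64 CPM in WT replicates 1 to 3. The IL5-Tg libraries lay within the WT range, and the log2 fold change was 0.09 ± 0.49 (SE, interval -1.01 to 1.19; edgeR adjusted p = 0.978), with a sign that turned under 3 of 16 alternatives. Unc93b1, the chaperone that carries nucleic acid receptors to endosomes, was named for that role after values were seen. It was abundant and near equal, at 262 ± 40.2 CPM in IL5-Tg and 258 ± 41.7 CPM in WT libraries (SD, n = 4 and 3; log2 fold change 0.03, edgeR adjusted p = 0.987).

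Myd88, the shared adaptor, had 1127 to 2415 reads per library. It reached 153, 186, 120 and 97.6 CPM in IL5-Tg replicates 1 to 4, against 136, 119 and 221 CPM in WT replicates 1 to 3. The groups overlapped, with WT replicate 3 the highest and IL5-Tg replicate 4 the lowest library. Myd88 had a log2 fold change of -0.19 ± 0.30 (SE, interval -0.87 to 0.49; edgeR adjusted p = 0.926), and without WT replicate 3 it was 0.16.

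**Figure D3:**
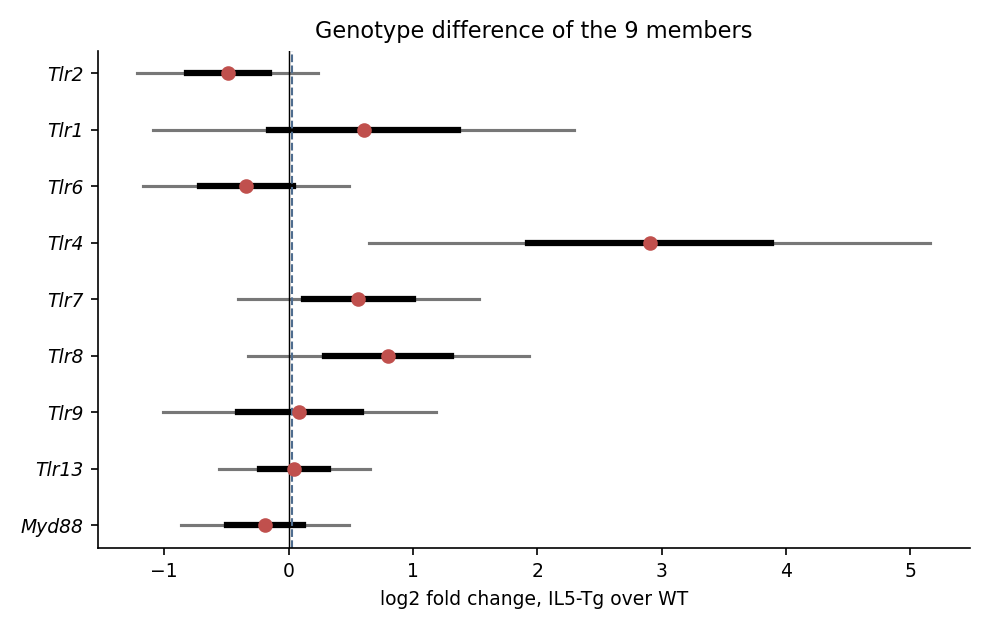
Points give the log2 fold change of each of the 9 genes, IL5-Tg over WT (horizontal axis), with the SE as thick lines, the unadjusted 95% interval as thin lines and the median of all tested genes, 0.03, as a dashed line. The interval excludes 0 for Tlr4 alone (0.65 to 5.16), which did not pass the test over all genes, and is narrowest for Tlr13.

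Ratios of reads within a library do not change with library size. The 3 ratios were tested by exact permutation of genotypes (two-sided, 35 arrangements, smallest possible p 0.0286), with p-values adjusted over the 3 ratios. The log2 ratio of Tlr4 to Tlr2 reads was -0.67, 1.0, -0.19 and 0.31 in IL5-Tg replicates 1 to 4, against -3.10, -2.70 and -8.00 in WT replicates 1 to 3. All IL5-Tg libraries were above all WT libraries. In IL5-Tg libraries both genes had similar read numbers, while Tlr2 had more reads in WT libraries. These reads are not scaled to exon length, which is 5.556 kb for Tlr4 and 3.014 kb for Tlr2. Per kb of exon Tlr2 was above Tlr4 in IL5-Tg libraries too, at means of 13.1 and 7.71, except in IL5-Tg replicate 2. The means were 0.11 ± 0.71 in IL5-Tg and -4.60 ± 2.95 in WT libraries (SD, n = 4 and 3), a difference of 4.71 (exact permutation p = 0.0286, the smallest possible; adjusted p = 0.0857). Without WT replicate 3 the difference was 3.01.

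The ratio of Tlr1 to Tlr6 followed Tlr1, the more variable of these neighbours. Its log2 value was 0.52, -1.17, 1.48 and 0.58 in IL5-Tg replicates 1 to 4, against 0.51, -0.50 and -3.01 in WT replicates 1 to 3. The groups overlapped, with a difference of 1.35 (exact permutation p = 0.229, adjusted p = 0.343), and without WT replicate 3 it was 0.35. For Tlr7 to Tlr8 the values were 1.42, 0.71, 0.98 and 0.89 in IL5-Tg replicates 1 to 4, against 2.84, 1.17 and -0.35 in WT replicates 1 to 3. The IL5-Tg libraries lay within the WT range (difference -0.22, exact permutation p = 0.714, adjusted p = 0.714), and without WT replicate 1 the difference was 0.59.

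**Figure D4:**
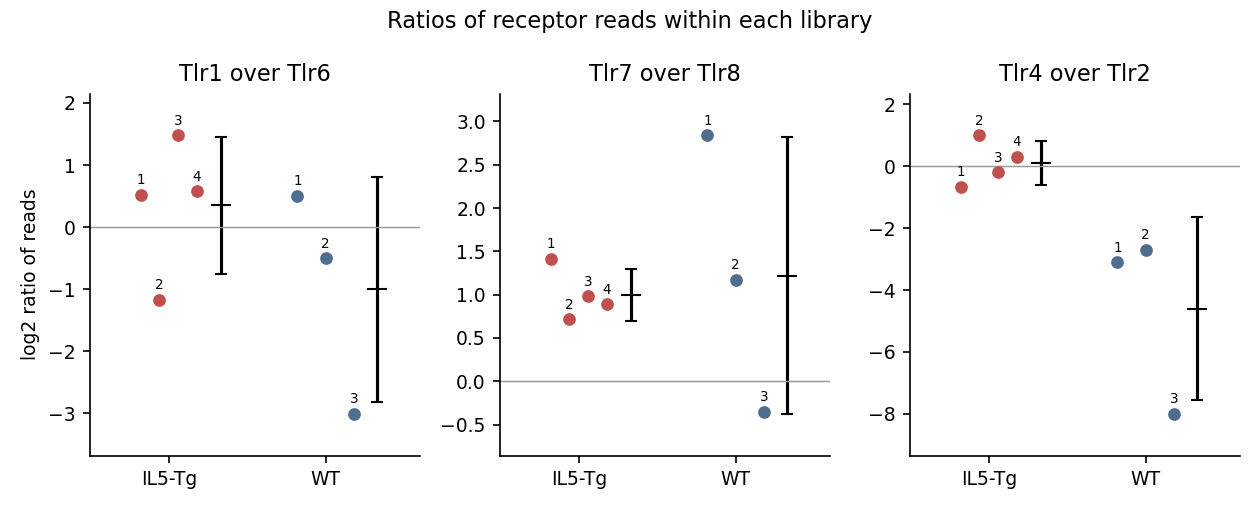
Points give the log2 ratio of reads of the named receptors (vertical axes) in the 4 IL5-Tg and 3 WT libraries, numbered by replicate, with the mean and SD beside each group. For Tlr4 over Tlr2 the IL5-Tg libraries lie between -0.67 and 1.0 and the WT libraries between -8.00 and -2.70, while the other ratios overlap.

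Other genes of the pathway were read from 7 lists ordered by role, which held 82 genes, all in the table and 79 of them tested. Over all lists 1 gene rose by edgeR, 0 fell and 78 did not pass, against 0.338% of all tested genes higher and 0.0724% lower. At an unadjusted p under 0.05 there were 15 of 79, against 9.04% of all tested genes. DESeq2 called 3 of 79, against 1.81% of all tested genes, and limma-voom 0 of 79, against 0.177%. The median log2 fold change was -0.13, with 34 positive and 45 negative values, beside a median of 0.03 and 52.1% positive over all tested genes. The groups did not overlap for 4 genes with higher and 7 with lower levels in IL5-Tg, where over all tested genes 4.76% were separated upwards and 4.60% downwards. Medians by list were 0.47 for the other receptors, -0.19 for adaptors, -0.51 for kinases and ligases, -0.07 for co-receptors, 0.11 for folding and trafficking, -0.24 for negative regulators and -0.33 for transcription factors.

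The gene that rose was Socs1, an inhibitor of cytokine receptor signalling that also restrains the Toll-like receptor pathway. It had 53.5, 76.2, 84.5 and 59.4 CPM in IL5-Tg replicates 1 to 4, against 19.6, 16.5 and 18.8 CPM in WT replicates 1 to 3, without overlap. On the log2 scale it rose by 1.90 ± 0.26 (SE) and passed the edgeR test (adjusted p = 0.0165). It did not pass by limma-voom, nor by edgeR without IL5-Tg replicate 2, IL5-Tg replicate 3 or WT replicate 1. It was the 1 of 17 tested negative regulators that passed. The next smallest p-values of that list, named after values were seen, belonged to Nfkbia, the NF-kappaB inhibitor that is itself an NF-kappaB target, and to Il1rl1, the IL-33 receptor. Nfkbia was at 1590 ± 440 CPM in IL5-Tg and 3790 ± 560 CPM in WT libraries (SD, n = 4 and 3; log2 fold change -1.25, edgeR adjusted p = 0.148, DESeq2 adjusted p = 0.00416). Il1rl1 was at 268 ± 46.5 CPM in IL5-Tg and 109 ± 45.6 CPM in WT libraries (SD, n = 4 and 3; log2 fold change 1.30, edgeR adjusted p = 0.185, DESeq2 adjusted p = 0.0102). Neither group pair overlapped.

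Below the receptors, none of the 4 tested adaptors and 17 tested kinases, ligases and scaffolds passed. Of these 21, 15 had negative fold changes, where 52.1% of all tested genes had positive ones. The number of negative signs was not tested. Tirap, which brings Myd88 to Tlr2 and Tlr4, had 14.5, 11.4, 13.0 and 9.29 CPM in IL5-Tg replicates 1 to 4, against 18.4, 20.2 and 20.9 CPM in WT replicates 1 to 3. All IL5-Tg libraries lay below all WT libraries, and the log2 fold change of -0.72 ± 0.30 (SE) did not pass (edgeR adjusted p = 0.517). Pik3ap1, an adaptor to phosphoinositide kinase, was at 132 ± 30.5 CPM in IL5-Tg and 81.6 ± 47.5 CPM in WT libraries. Tbk1, the kinase of interferon regulatory factors, was at 28.8 ± 4.5 CPM in IL5-Tg and 59.7 ± 23.8 CPM in WT libraries (log2 fold change -1.05, edgeR adjusted p = 0.307). Irak1, the kinase recruited by Myd88, was at 98.0 ± 11.7 CPM in IL5-Tg and 156 ± 44.7 CPM in WT libraries (log2 fold change -0.67, edgeR adjusted p = 0.444).

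None of the 8 co-receptor genes, 19 tested trafficking genes and 11 transcription factors passed. Cd180, a surface relative of Tlr4, was at 51.0 ± 6.80 CPM in IL5-Tg and 35.7 ± 6.92 CPM in WT libraries, and Grn, a lysosomal protein linked to CpG handling, at 1670 ± 180 and 1100 ± 516 CPM in IL5-Tg and WT libraries. Ctsk, an endosomal protease of the kind that processes Tlr9, was at 39.5 ± 15.2 CPM in IL5-Tg and 18 ± 8.05 CPM in WT libraries (log2 fold change 1.14, edgeR adjusted p = 0.468). It is also made by fibroblasts, and was lowest in WT replicate 3, at 8.88 CPM, as was the fibroblast sum. The part of fibroblast RNA in the Ctsk difference was not tested. Pld3, a nuclease that degrades ligands of Tlr9, was at 262 ± 34.3 CPM in IL5-Tg and 174 ± 89.9 CPM in WT libraries. The NF-kappaB subunit Rel was at 15.2 ± 3.78 CPM in IL5-Tg and 38.0 ± 31.8 CPM in WT libraries, where replicate 3 held 74.5 CPM, and Relb was at 42.1 ± 9.83 CPM in IL5-Tg and 66.0 ± 13.0 CPM in WT libraries.

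The other 4 receptors of the family averaged under 5 CPM in both genotypes, and Tlr5 and Tlr11 are named to complete the family. Tlr3, the endosomal sensor of double-stranded RNA, was at 4.13 ± 3.31 CPM in IL5-Tg and 2.36 ± 3.4 CPM in WT libraries. Tlr12 was at 3.30 ± 1.15 CPM in IL5-Tg and 2.39 ± 1.70 CPM in WT libraries, and Tlr5, the flagellin receptor, at 2.35 ± 1.44 CPM in IL5-Tg and 2.75 ± 4.30 CPM in WT libraries. None of these 3 tested genes passed. Tlr11 averaged 0.373 CPM in IL5-Tg and 0.644 CPM in WT libraries and did not pass the filter on low counts.

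**Figure D5:**
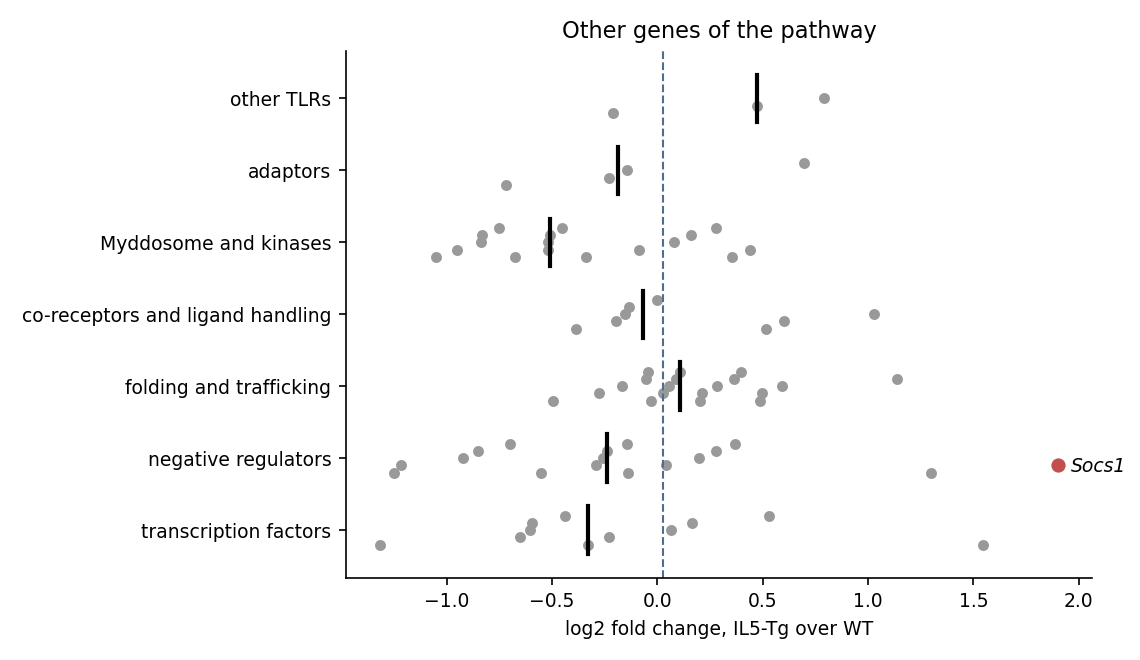
Points give the log2 fold change, IL5-Tg over WT (horizontal axis), of the 79 tested genes in 7 pathway lists, with list medians as black bars and the median of all tested genes, 0.03, as a dashed line. Socs1, at 1.90, is the red point and the 1 gene that passed; the list medians lie between -0.51 and 0.47.

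To find genes whose pattern over the 7 libraries was most like that of the most abundant members, profiles of log2(CPM + 1) centred on their mean were compared by their root mean square difference, over up to 7915 other genes with a mean of at least 10 CPM. Closest to Myd88 were P2rx1 (0.0852) and Rab27a (0.0928). P2rx1, a cation channel gated by ATP, was at 370 ± 116 CPM in IL5-Tg and 415 ± 133 CPM in WT libraries. Closest to Tlr13 were Fam120b (0.0800), Tmem33 (0.113) and Cgrrf1 (0.127), and closest to Tlr2 were Snx18 (0.0662), Ms4a6d (0.152) and Nop14 (0.153). Among the 9 genes themselves the smallest difference was between Tlr6 and Myd88, at 0.330. By this measure genes that vary little can come out close without a shared pattern. In WT replicate 3 Myd88 was at its highest, 221 CPM, while Tlr6, at 10.2 CPM, was within its range in other libraries.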

How the data were processed

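RNA of sorted eosinophils from 4 IL5-Tg and 3 WT mouse muscle samples was made into stranded mRNA libraries and sequenced as paired reads of 42 bases, per the labels' protocols. The authors deposited unnormalized whole-number counts of reads for each gene symbol, with 1 column per library. The tools were STAR, Bowtie and bcl2fastq 2.20 and the build mm10, per the submitters' processing notes. The counting program, its annotation and its use of strand are not stated there. Rows for reads of no feature (9.15% to 18.2% of a library) and ambiguous reads (0.750% to 0.943%) were left out.

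Of 24421 genes, 12428 passed filterByExpr and were tested in R 4.3.3 with edgeR 4.0.16 and its quasi-likelihood test (TMM, robust estimation, genotype as the only term, all 7 libraries, Benjamini-Hochberg adjustment over all tested genes). Each SE is the fold change divided by the root of F. Positive log2 fold changes mean higher in IL5-Tg. Replicates are numbered in accession order, and no 2 libraries of a group agreed within sampling noise (chi-square per gene 26.0 to 149). Ratios of reads used 0.5 added reads. Exon lengths are from GENCODE vM21, matched by symbol. The members and lists were chosen with earlier results of these data known. Named pathway genes are the called genes of a list or, where none was called, the 2 with the smallest p, unless stated otherwise. For likeness to Myd88, Tlr13 and Tlr2 the 3 closest genes were taken, of which 1 is not reported here.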

Additional observations from a re-analysis of the deposited data

How the results depend on the processing

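The alternatives were other normalizations, DESeq2 1.42.0, limma-voom (limma 3.58.1), other filters, no robust estimation, thinning, dividing each library by its most frequent low count, a block and leaving out each library. No paired analysis was possible because the labels give no replicate numbers; the shared title start was used as a block instead. Of the 9 receptors and adaptor, 1 (Tlr4) was called by DESeq2, after division by the low count and with the block, and 0 to 1 when a library was left out, the call coming without WT replicate 3. Over all genes, 51 calls became 225 by DESeq2, 22 by limma-voom, 100 after the division and 16 to 97 when a library was left out. Pathway genes called were 3 by DESeq2 (Socs1, Il1rl1 and Nfkbia), 0 by limma-voom and 0 to 2 when a library was left out, with Socs1 lost without IL5-Tg replicate 2, IL5-Tg replicate 3 or WT replicate 1 and Il1rl1 gained without WT replicate 3. The log2 fold change turned for Tlr13 under limma-voom (-0.041) and the block (-0.18) and for Tlr9 after thinning (-0.011). When a library was left out it ranged over -0.092 to 0.37 for Tlr13, -0.29 to 0.56 for Tlr9 and -0.36 to 0.16 for Myd88. The difference in the Tlr7 to Tlr8 ratio ranged over -1.0 to 0.59. The cause of these changes was not tested. The other results on the 9 genes and the ratios kept their direction. Counts under about the most common low count of a WT library (5, 8 and 12 reads) limit what WT levels show.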

Other observations

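Set against the most common low count of each library, the reads of the 9 genes were thinnest in WT libraries. In WT replicate 3 the reads of Tlr4 were 0.0833 times that count, those of Tlr1 1.08 times, Tlr7 4.5 times, Tlr8 5.75 times, Tlr9 8.50 times and Tlr6 9 times, while those of Tlr2, Tlr13 and Myd88 were 32.0, 65.7 and 195 times. In IL5-Tg replicate 2 the corresponding multiples were 612 for Tlr4, 50 for Tlr1, 184 for Tlr7, 112 for Tlr8, 132 for Tlr9 and 113 for Tlr6.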
